A study of Arabidopsis thaliana with 16 samples.

Results

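Dexamethasone (DEX) was applied to Arabidopsis thaliana seedlings of an empty vector line, and the transcripts of their shoots were compared 4 h later with those of mock-treated shoots of the same line. The comparison rests on 4 of the 16 arrays in the series, all taken at 4 h: the 2 arrays of the vector line with DEX against the 2 arrays of the vector line with mock treatment, chosen by their labels alone. Seedlings were 8 days old, of the ecotype Landsberg erecta, grown at 22 °C in continuous light on agar with sucrose. Every group, DEX and mock alike, was first sprayed with the gibberellin GA4 at 2 µM. After 16 h the DEX groups received 10 µM DEX in 2 µM GA4, and the mock groups 2 µM GA4 without DEX. The line carries the DEX-inducible construct with an empty cassette; which chimeric factor answers to DEX in it is not given in the sources used here, nor is the number of independent transformants. For the other 12 arrays, the construct held rga-delta17, a gibberellin-resistant form of a DELLA protein (called the rga line here), with 3 arrays each for DEX and mock at 2 h and at 4 h. The vector line was not profiled at 2 h. Samples are described as biological replicates, without saying whether plants were pooled.

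Gibberellins promote growth by binding a receptor that brings DELLA proteins, a small family of nuclear growth repressors, to degradation. DEX is a synthetic animal glucocorticoid, and plants have no receptor for it; in DEX-inducible plant lines it releases an introduced chimeric transcription factor that then switches on the cassette behind it. An empty cassette line therefore receives DEX and the released factor but no induced effector, and serves as the control for both.

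Signals are the deposited array intensities on a linear scale. Changes are given as log2 of DEX over mock, after signals under 8 had been raised to 8, with the standard error (SE) of 1 limma fit over 22746 probe sets and all 16 arrays. A probe set was called at a Benjamini-Hochberg adjusted p below 0.05. The arrays carry no read depth; their number, 2 a side, limits the precision.

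Both vector DEX arrays stood apart from all others in several array-wide values. The control probe set for 25S ribosomal RNA read 12528 and 13088 on the vector DEX arrays, against 422 and 526 with mock in the same line; the 12 arrays of the rga line read 391 to 2046. The means differed 27.0-fold within the vector line. The median signal was 139.9 and 137.0 on the vector DEX arrays, against 167.4 and 166.5 with mock in that line, and 177 to 192 in the rga line. Ratios of the 3′ to the 5′ control probe sets, which change when RNA is degraded, were 0.795 and 0.876 for GAPDH with DEX and 0.757 and 0.829 with mock. For actin they were 14.2 and 12.8 with DEX and 16.6 and 14.9 with mock, all 4 above the 7.98 to 11.4 of the 12 rga arrays. The share of probe sets at or below 8 was likewise higher on the vector arrays, at 13.68% and 13.73% with DEX and 12.52% and 13.38% with mock, against 7.51% to 10.8% in the rga line. The 2 DEX arrays correlated at 0.977 with each other and at 0.899 to 0.914 with the 2 mock arrays, which correlated at 0.974 with each other (Pearson, log2 values, over probe sets, which are not independent). Each result within the vector line compares these same 4 arrays, and the part of the ribosomal RNA signal in them cannot be told apart from that of DEX. A fall may also reflect fewer cells of a type or less RNA per cell, which bulk shoots cannot separate.

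**Figure D1:**
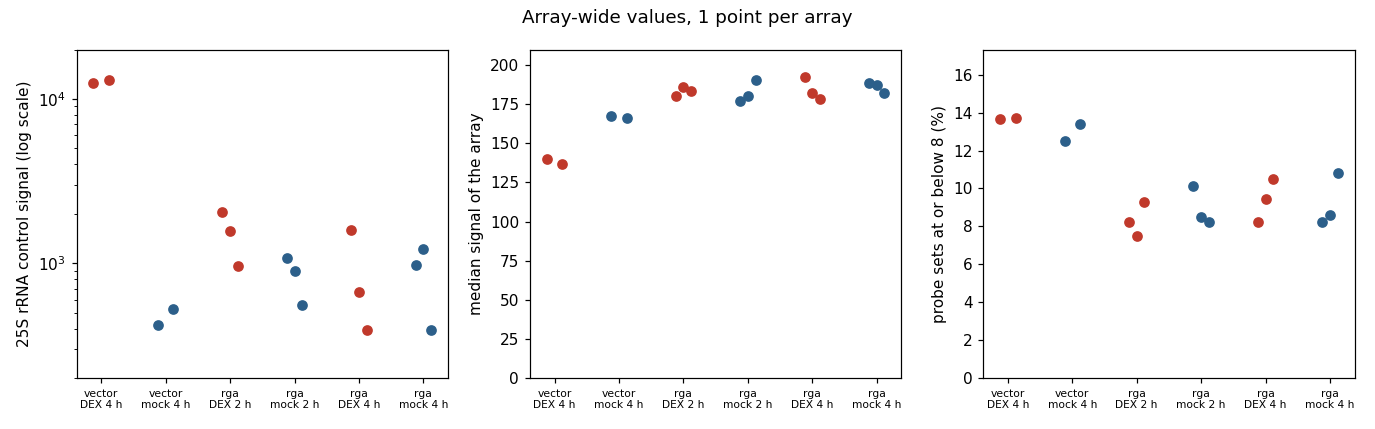
Signal of the 25S ribosomal RNA control probe set (log axis), median signal and percentage of probe sets at or below 8, for each of the 16 arrays, in 6 groups. Red points are DEX and blue points mock; the 2 vector DEX arrays have the highest rRNA signals (12528 and 13088) and the lowest medians (139.9 and 137.0).

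Few markers of the shoot's cell types could be matched to a probe set. RCA, the rubisco activase gene of green leaf cells, read 18712 and 18378 with DEX and 19579.6 and 21554 with mock. FDH, listed as an epidermis marker, read 6868 and 7954 with DEX and 7693 and 7808 with mock. It was matched by its symbol alone, and whether that symbol stands for the epidermal gene was not checked. Neither RCA nor FDH was called (log2 changes -0.15 ± 0.13 and -0.07 ± 0.12). Of 16 root markers 2 could be matched, the root hair expansin genes EXPA7 and EXPA18, at 30.9 ± 12.4 and 117 ± 32.3 with DEX and 27.9 ± 4.93 and 73.2 ± 32.1 with mock (mean ± SD, n = 2 each), and neither was called. The summed signal of those 2 genes averaged 147 with DEX and 101 with mock. Of 7 trichome markers 3 could be matched, with a summed signal of 287 with DEX and 391 with mock; only GIS, a trichome regulator gene, was called (-1.41 ± 0.49), not after rescaling, nor without DEX replicate 2 (-0.58) or either mock array. Of 10 guard cell markers 3 could be matched, the stomatal lineage genes SPCH, MUTE and FMA, with a summed signal of 381 with DEX and 378 with mock, and none was called (0.37 ± 0.15, -1.05 ± 1.21 and -0.83 ± 0.32). The part of such cells in the results was not tested. The stem cell peptide gene CLV3 lay at or below 8 on all 4 arrays. SWEET11, the 1 phloem marker of 8 that could be matched, was called lower and is described with its family.

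DEX treatment of the vector line was followed by changes across the array. Of the 22746 probe sets tested, 8029 were called (35.3%), with 3085 higher (13.6%) and 4944 lower (21.7%). The median change among those called was 1.05 upward, or 2.07-fold, and -1.08 downward, or 2.12-fold. At least 4-fold changes were called upward in 698 probe sets and downward in 957. The largest changes leaned the other way: 123 probe sets rose at least 16-fold and 59 fell as far, and 50 rose and 13 fell at least 32-fold. Changes exceeded the spread between replicates over the table as a whole: the median absolute difference was 0.50 between DEX and mock, against 0.19 between the DEX replicates and 0.17 between the mock replicates. The groups' arrays did not overlap for 15408 probe sets (67.7%), the DEX arrays lying above in 6214 (27.3%) and below in 9194 (40.4%). With only 2 arrays a side, a sizeable share of probe sets would not overlap even without an effect of DEX.

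The balance of rises and falls depended on how the arrays were scaled. With the deposited scaling the median of all probe sets was -0.09, and 38.4% of calls were higher. After quantile normalization the median was 0.00 and the share 44.6%, and after centring each array on its median they were 0.18 and 59.3%. Called the same way under all 3 scalings were 5996 probe sets (26.4%), 2960 higher (13.0%) and 3036 lower (13.3%). Genes named below as higher or lower passed under all 3 unless the text says otherwise. Both vector DEX arrays lay above all 14 other arrays of the series in 3145 probe sets (13.8%) and below all of them in 5916 (26.0%). Calls were more frequent among bright probe sets: of the 5687 brightest, 21.9% were higher and 35.1% lower, and of the 5687 dimmest, 3.69% and 2.06%.

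**Figure D2:**
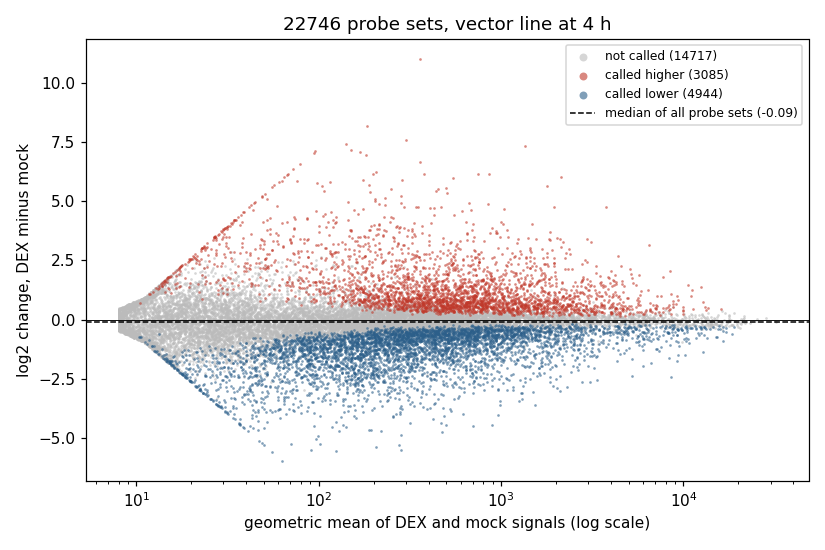
Log2 change (DEX minus mock) of each of 22746 probe sets in the vector line against the geometric mean of its DEX and mock signals (log axis); red points were called higher (3085), blue points lower (4944) and grey points not called. The dashed line is the median of all probe sets, -0.09; the straight outer edges are probe sets at or below 8 in 1 of the groups.

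Genes nearly silent in mock shoots reached high signals with DEX. M10, a gene of the late embryogenesis abundant family, read 2738 and 3536 on the DEX arrays, against 10.7 and 10.8 on the mock arrays, the largest rise among named genes with all 4 arrays above 8. Its log2 change was 8.18 ± 0.44 (SE; limma adjusted p = 6.60e-08). LBD16, a transcription factor gene of auxin-induced lateral root initiation, read 1643 and 1841 with DEX, against 31.9 and 17.2 with mock, a change of 6.22 ± 0.34. BGLU45, which encodes a glucosidase of lignin precursors, read 924 and 1392 with DEX, against 32.4 and 38.6 with mock, a change of 5.003 ± 0.31. The DEX arrays of these 3 genes lay far above the mock arrays and close to each other. The other 12 of the 15 largest rises carry a locus identifier and no symbol in the tables used. Among them AT4G13230 read 4037 and 4228 with DEX, against 17.2 and 26.7 with mock (7.59 ± 0.73), and AT5G51950 read 1921 and 1752, against 11.8 and 9.697 with mock (7.42 ± 0.71). AT2G41730 was the brightest, at 12797 and 12241 with DEX, against 257 and 250.3 with mock (5.63 ± 0.21), on a probe set whose probes may match related transcripts. AT3G62280, AT4G28460, AT5G08240, AT4G25580, AT5G62730, AT3G10590, AT3G07600, AT1G20490 and AT4G39320 rose by 4.93 to 6.15.

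Some genes were at or below 8 on both mock arrays, so that only a lower bound of the rise can be given. AT4G22640 read 16740.5 and 15913 with DEX, against 1.94 and 2.76 with mock, which is at least 2040.2-fold higher. GH9B6, a gene of the endoglucanase family that acts on cell wall glucans, read 521 and 530.3 with DEX, against 2.06 and 5.34 with mock, at least 65.7-fold. AT1G64405, AT5G04970 and AT3G61300 were at least 81.4, 71.8 and 56.7-fold higher. These are bounds because array signals that low cannot be ordered. The reverse also occurred, with smaller bounds. UGT74F1, a glucosyltransferase gene that acts on salicylic acid, read 6.51 and 6.93 with DEX, both under the floor, against 103 and 149.95 with mock, at least 15.5-fold lower. AT1G70985, AT1G72230, AT1G75190 and AT5G59990 were at least 21.4, 17.5, 14.7 and 14.8-fold lower.

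The largest falls were ranked among genes with all 4 arrays above 8. Under that rule a large fall requires a high mock signal, so the mock levels below are no separate result. HAT2, an auxin-inducible homeobox transcription factor gene, read 20.01 and 46.9997 on the DEX arrays, against 534 and 516 on the mock arrays, a change of -4.097 ± 0.31 (limma adjusted p = 6.98e-07). CCL read 379 and 131 with DEX, against 3980.3 and 3341 with mock (-4.03 ± 0.35). GH3.3, which encodes an enzyme that couples auxin to amino acids, read 149 and 130.2 with DEX, against 1854 and 2218 with mock (-3.86 ± 0.21). In HAT2 and CCL the 2 DEX arrays differed from each other by more than 2-fold, yet both lay far below the mock arrays. CIL, a relative of the chloroplast protein import regulator CIA2, read 44.2 and 8.71 with DEX, against 292 and 268 with mock (-3.83 ± 0.51), and CYP71B29, of the cytochrome P450 family, 17.99 and 9.24 with DEX, against 204 and 181 with mock (-3.8997 ± 0.78). The locus with the largest fall among genes with all 4 arrays above 8, AT5G62360, read 18.8 and 17.7 with DEX, against 543 and 536 with mock (-4.88 ± 0.27). AT5G48490 read 127 and 88.3 with DEX, against 2186 and 2416 with mock (-4.44 ± 0.25). The 8 other loci of that rank, AT1G29660, AT4G09890, AT1G10340, AT1G70820, AT1G19960, AT3G62550, AT5G02890 and AT1G68585, changed by -4.69 to -3.88.

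Because most of those loci have no symbol, the 30 largest rises and the 30 largest falls among genes with a symbol were also ranked, a rule added after the values had been seen. Next to the rises above stood CML37, a calmodulin-like calcium sensor gene of wound and touch responses, at 811 and 701 with DEX, against 43.2 and 21.95 with mock (4.61 ± 0.96). CCR2, listed as a cinnamoyl-CoA reductase gene of the lignin branch, read 1039 and 1572 with DEX, against 124 and 84.7 with mock (3.64 ± 0.596). It was named by its symbol alone, and whether that symbol stands for the reductase gene was not checked. XEG113, an arabinosyltransferase gene for wall extensins, read 4636 and 4836 with DEX, against 640.4 and 551 with mock (2.99 ± 0.14). The ranking kept only genes with mock signals above 8 and DEX arrays that did not overlap with them. SDP1, the main lipase of stored seed oil, read 1375 and 1575 with DEX, against 296 and 294 with mock (2.32 ± 0.15), and DLAH, a mitochondrial lipid hydrolase gene, 413 and 331 with DEX, against 78.6 and 59.4 with mock (2.44 ± 0.38).

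Among the falls of that ranking, STOMAGEN, whose secreted peptide promotes stomata, read 79.3 and 39.999 with DEX, against 534 and 608 with mock (-3.34 ± 0.27). WAG2, a kinase gene that acts on auxin transport, read 46.8 and 40.4 with DEX, against 445 and 446 with mock (-3.36 ± 0.41). BAT1, an acyltransferase gene that lowers active brassinosteroid, read 35.95 and 8.26 with DEX, against 147 and 94.7 with mock (-2.78 ± 0.59). GTR1 and GTR2, transporter genes for glucosinolates, the mustard oil precursors of the cabbage family, read 110.3 and 92.5 and 209 and 254 with DEX, against 897 and 1047 and 1671 and 1696 with mock (-3.26 ± 0.12 and -2.87 ± 0.18). Of the glucosinolate and tryptophan list 2 of 36 genes could be tested: BCAT4, of the first chain elongation step, was lower at 1271 and 1046 with DEX, against 4119.6 and 4308 with mock (-1.87 ± 0.17), and the glucosyltransferase gene UGT74B1 was higher at 2572 and 3842 with DEX, against 1829.7 and 1957 with mock (0.73 ± 0.15).

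**Figure D3:**
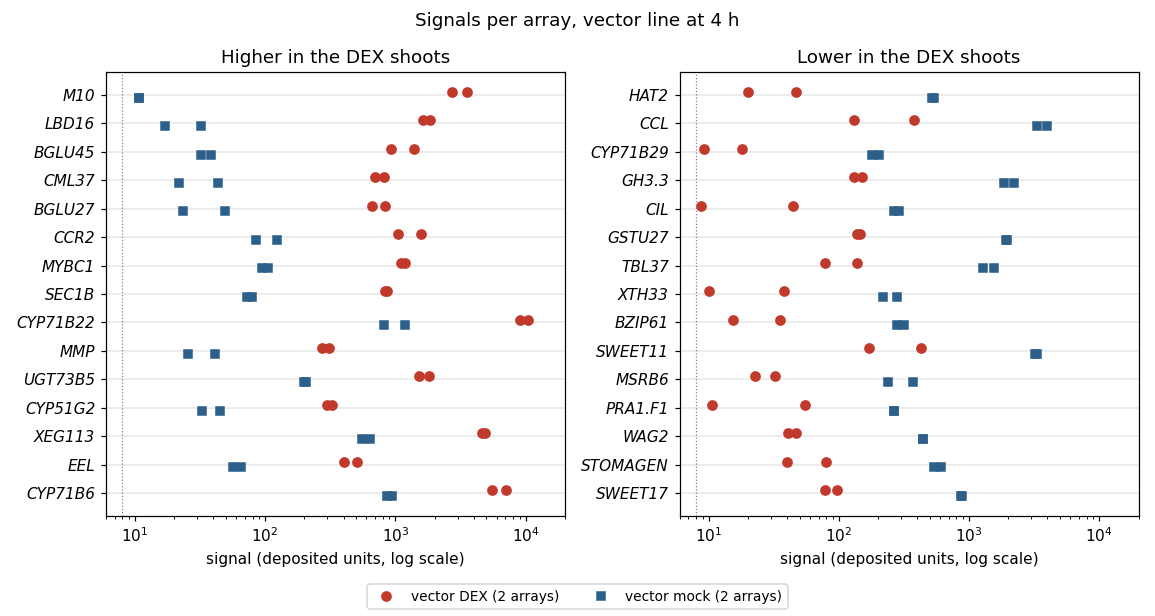
Signal on each array (log axis) of the 15 genes with a symbol that rose most (left) and the 15 that fell most (right) with DEX in the vector line; red circles are the 2 DEX arrays and blue squares the 2 mock arrays, and the dotted line is the floor of 8. No gene's DEX and mock arrays overlap, as the ranking required.

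Gene groups were read against all genes: of 13286 genes, each by its brightest probe set, 31.2% were called, 12.6% higher and 18.6% lower, and the median change was -0.07. Called the same way under all 3 scalings were 23.1% of genes, 12.1% higher and 11.0% lower. Groups were chosen with earlier results of these data known, and most groups could be tested only in part, because the tables name no gene for 8730 probe sets. Counts in the groups below use the deposited scaling unless stated otherwise. No set test was made, and a count alone shows nothing particular to a group.

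Among auxin genes, 13 of 49 listed could be tested, and they split: 5 were higher and 2 lower, with a median of 0.20. Beside LBD16, the repressor gene IAA20 read 269 and 357 with DEX, against 10.2 and 6.93 with mock (5.099 ± 0.78). WES1, a conjugating enzyme of the same family as GH3.3, moved opposite to it, at 2047 and 2125 with DEX, against 421 and 396 with mock (2.35 ± 0.201). GH3.1, another of that family, averaged 319 ± 12.1 with DEX and lay under 8 on both mock arrays, at least 39.9-fold higher, and IAA29 rose by 2.04 ± 0.64. The call of IAA29 was lost when any 1 of the 4 arrays was left out (changes of 1.92 to 2.16). IAA18 was lower (-0.65 ± 0.16), though not after median centring, nor without DEX replicate 2 (-0.56) or mock replicate 2 (-0.52).

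Gibberellin genes also divided. Of 31 listed 7 could be tested, 2 higher and 2 lower, with a median of -0.25. The 3 receptor genes went different ways: GID1B read 584 and 617 with DEX, against 259 and 270.4 with mock (1.18 ± 0.22), while GID1A read 165 and 138 with DEX, against 294 and 344 with mock (-1.08 ± 0.14). GID1C was lower (-0.59 ± 0.18), but was not called after quantile normalization or median centring, nor without DEX replicate 2 (-0.46), mock replicate 1 (-0.54) or mock replicate 2 (-0.64). SPY, an enzyme that modifies DELLA proteins, was slightly higher (0.35 ± 0.098), and SLY1, the F-box gene that marks DELLA proteins for breakdown, was not called (-0.25 ± 0.14). The call of SPY was lost when DEX replicate 1 or either mock array was left out (changes of 0.33 to 0.35). In the rga line at 4 h, the receptor genes GID1B and GID1A both rose, by 1.91 ± 0.18 and 0.69 ± 0.11. For GID1A the DEX effects of the lines differed, by -1.76 ± 0.18 (vector minus rga; limma adjusted p = 3.22e-05).

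All 3 cytokinin genes that could be tested of 34 were lower. They were RR16, a response regulator, at 43.4 and 42.5 with DEX, against 160.2 and 184 with mock (-1.9996 ± 0.22), and the cytokinin glucosyltransferase genes UGT76C1 (-1.45 ± 0.29) and UGT76C2 (-0.93 ± 0.31), the last not called after rescaling, nor without DEX replicate 1 (-0.61) or either mock array (-1.004 and -0.85). Of 28 ethylene genes 2 could be tested, and neither was called by limma or reached an unadjusted p under 0.05 (0 of 2): EIN3, the central transcription factor, at 1402 and 1542 with DEX and 1442 and 1403 with mock.

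Cell wall genes held calls in both directions. Expansins, proteins that loosen walls in growing cells, gave 3 higher and 7 lower of 15 tested (27 listed), with a median of -0.74; 5 of the 7 stayed lower under all 3 scalings. EXPA9 and EXPA4 read 738 and 997 and 1544 and 1649 with DEX, against 169 and 129 and 585 and 525 with mock (2.54 ± 0.204 and 1.53 ± 0.14). EXPA15 read 109 and 94.8 with DEX, against 459.9 and 388 with mock (-2.05 ± 0.15). The expansin-like genes EXLA1, EXLA2 and EXLB1 averaged 54.1 ± 22.1, 18.7 ± 10.1 and 55.5 ± 7.596 with DEX, against 437 ± 25.4, 148 ± 24.98 and 277 ± 48.4 with mock. Of the enzymes of cellulose, xyloglucan and pectin, 3 were higher and 5 lower of 11 tested (53 listed), with a median of -0.73. Under all 3 scalings 2 were higher and 4 lower. XTH16, a xyloglucan-remodelling enzyme, read 246 and 155 with DEX, against 1154 and 1336 with mock (-2.67 ± 0.22), and XTH33 read 37.9 and 10.2 with DEX, against 279.9 and 219.8 with mock (-3.66 ± 0.47). CSLC5, a glucan synthase gene, changed by -1.28 ± 0.16, and XTH32 went the other way (0.55 ± 0.09). TBL genes, several of which acetylate wall polymers, gave 3 higher and 7 lower of 22, all under every scaling, and 1 higher without DEX replicate 2; TBL37 was the lowest, at 138 and 78.01 with DEX, against 1276 and 1563 with mock (-3.77 ± 0.21).

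Among SWEET genes and genes of secreted peptides, some members were called lower and none higher. Over all genes 12.6% were higher and 18.6% lower, so few higher calls would be expected among 14 and 10 genes. SWEET genes encode sugar transporters. Of 14 tested (15 listed) 7 were lower and 0 higher by limma, also 0 higher at an unadjusted p under 0.05, and the median was -1.35. SWEET11, which exports sucrose for loading into the phloem, read 425 and 170.2 with DEX, against 3317 and 3194 with mock (-3.597 ± 0.31; limma adjusted p = 2.59e-06). SWEET17, a fructose carrier of the vacuole, read 97.2 and 78.04 with DEX, against 879 and 866 with mock (-3.32 ± 0.16). SWEET1 read 207 and 154 with DEX, against 967 and 1075 with mock (-2.52 ± 0.14), and SWEET10 97.4 and 30.9 with DEX, against 489 and 352 with mock (-2.92 ± 0.399). All 4 had non-overlapping arrays. SWEET2, SWEET4 and SWEET13 were also lower (-1.43, -1.701 and -1.28), SWEET4 not under every scaling and not without DEX replicate 1 or either mock array. Of 10 RALFL genes, which encode small secreted growth peptides, 4 were lower and 0 higher by limma (1 higher at an unadjusted p under 0.05). Under all 3 scalings 3 were lower, and RALFL24 was not called after quantile normalization (-0.79). RALFL33 read 563 and 572 with DEX, against 2015 and 1597 with mock (-1.66 ± 0.17).

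The photosynthesis lists held calls downward and none upward among their 12 tested genes, where 12.6% of all genes were higher and 18.6% lower. In the antenna list (3 of 24 tested) LHCB4.1 read 11411 and 12160.1 with DEX and 14146 and 14108 with mock and was not called (-0.26 ± 0.12), whereas LHCB4.2 fell to 574 and 484 with DEX, against 2905 and 3187 with mock (-2.53 ± 0.14). Of 5 nuclear photosystem and electron transport genes (28 listed) 3 were lower, PSBY by -0.87 ± 0.14; PSAN and ATPC1 lost the call after median centring, and ATPC1 also without DEX replicate 2 or either mock array (-0.33 to -0.43). Of 4 carbon fixation and photorespiration genes (31 listed) 3 were lower, led by HPR, the hydroxypyruvate reductase of photorespiration, at 3418 and 2813 with DEX, against 6356 and 8814 with mock (-1.27 ± 0.19). PRK (-0.64 ± 0.15) and SBPASE (-0.55 ± 0.14), of the Calvin cycle, were not called after median centring, nor without mock replicate 2 (-0.54 for PRK and -0.45 for SBPASE), nor, for SBPASE, without DEX replicate 2 (-0.48). Pigment synthesis was mixed, with 2 higher and 3 lower of 8 (30 listed). HEMA2, of the first committed step to chlorophyll and heme, read 541 and 555 with DEX, against 154 and 105 with mock (2.11 ± 0.24), and CHLM, a later chlorophyll enzyme, 1415 and 1205 with DEX, against 2473 and 2731 with mock (-0.99 ± 0.15). Of 69 plastid-encoded genes, a group added after the data had been seen, 5 were called higher and 1 lower, with a median of 0.19. Without DEX replicate 2 the counts were 0 higher and 1 lower, and without mock replicate 2 they were 1 and 2. Only atpH (0.56 ± 0.19) kept its call under all 3 scalings, and it lost it without either DEX array or mock replicate 2 (0.17). The rubisco large subunit gene rbcL was lower (-0.54 ± 0.16), not after median centring, nor without either DEX array or mock replicate 1.

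Autophagy genes and the SEC and VPS genes of vesicle traffic held more calls upward than downward, most of them of modest size. Of 10 autophagy genes tested (26 listed) 4 were higher and 1 lower, with a median of 0.30. ATG8H, a ubiquitin-like protein gene of the autophagosome membrane, read 659.6 and 813 with DEX, against 171 and 176 with mock (2.08 ± 0.25), and its relative ATG8F read 783 and 895 with DEX, against 1366 and 1708 with mock (-0.87 ± 0.13). The conjugating enzyme gene ATG3 rose by 0.34 ± 0.11, a call lost without DEX replicate 2 or mock replicate 2, and without DEX replicate 2 the count of autophagy genes higher was 2. SEC genes and VPS genes were grouped by their symbols after the data had been seen. PRA genes, grouped in the same way, gave 3 higher and 3 lower of 11 (1 lower under all 3 scalings), with a median of 0.11. Of 10 SEC genes 7 were higher and 0 lower under every scaling (0 lower also at an unadjusted p under 0.05), with a median of 0.47. Without DEX replicate 2 the count higher was 4. Among these SEC5A, SEC6, SEC10 and SEC15B encode subunits of the exocyst, which tethers secretory vesicles, and changed by 0.45, 0.71, 0.42 and 0.71; SEC5A and SEC10 were among those that leaving out a single array could lose. SEC1B, a vesicle fusion regulator gene, read 836 and 868 with DEX, against 79.2 and 72.9 with mock (3.49 ± 0.36). The group also holds SEC, a sugar transferase gene that is no traffic gene and was not called (0.196 ± 0.14). Of 10 VPS genes 6 were higher and 1 lower. The calls of VPS24.1 and VPS60.2 could be lost by leaving out a single array. Without DEX replicate 1 VPS24.1 changed by 0.21, and without mock replicate 1 VPS60.2 changed by 0.48. The 6 belong to the ESCRT-III machinery or its partners, which sort membrane proteins to the vacuole: VPS2.1 read 2308 and 2354 with DEX, against 915 and 836 with mock (1.41 ± 0.09), VPS20.1 changed by 1.27 ± 0.12 and VPS60.1 by 1.02 ± 0.18. VPS9B, a regulator of endosomal GTPases, was lower (-1.04 ± 0.18).

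Stress and signalling genes held calls in both directions. BZIP60 and BZIP28, transcription factor genes of the endoplasmic reticulum stress response, read 4311 and 4269.6 and 1071 and 1179.9 with DEX, against 977 and 800.3 and 746 and 769.6 with mock (2.28 ± 0.15 and 0.57 ± 0.14); the call of BZIP28 was lost without DEX replicate 2. UBC32, a ubiquitin-conjugating enzyme gene of the same compartment, changed by 1.03 ± 0.11. Of 14 BZIP genes (30 listed) 2 were higher and 3 lower, the lower ones being BZIP34, bZIP44 (-1.72 ± 0.19) and BZIP61 (-3.66 ± 1.03), whose call was lost without DEX replicate 1 (-3.06) or either mock array. WRKY6, a transcription factor gene of senescence and defence, read 2995 and 2793 with DEX, against 559 and 391 with mock (2.63 ± 0.2999), while WRKY22 and WRKY47 were lower (-1.404 ± 0.26 and -2.48 ± 0.29). STZ, a zinc finger gene of cold and salt stress, read 6549.9 and 7462 with DEX, against 3181 and 3028 with mock (1.17 ± 0.23). CML42, a calcium sensor gene, read 3609.6 and 4419.8 with DEX, against 932 and 1035 with mock (2.02 ± 0.18), and CML23, of the same family, 9.73 and 17.61 with DEX, against 102 and 128 with mock (-3.13 ± 0.44). Of 7 CML genes tested (8 listed) 2 were higher and 3 lower. The other lower ones were CML41 (-2.54 ± 0.26) and CML38, of touch and wounding (-1.55 ± 0.55), the last not after rescaling, nor without either DEX array or mock replicate 1 (-0.87). PUB24, a ubiquitin ligase gene that dampens immune responses, was the 1 member of 9 tested PUB genes to be called (2.55 ± 0.27). OPCL1, of jasmonate synthesis, rose by 1.57 ± 0.14, and COR47, a dehydrin gene of cold and drought, by 1.89 ± 0.19. COR47 was the 1 gene higher and XERICO, a gene of abscisic acid accumulation, the 1 lower of 5 tested in its list (34 listed); XERICO (-0.68 ± 0.17) was not called after rescaling, nor without DEX replicate 2 (-0.55). Of 4 defence genes tested (28 listed) only BIK1, an immune kinase, was called (0.8004 ± 0.12).

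Families that modify small molecules moved in both directions. UGT genes, which attach sugars to hormones and secondary metabolites, gave 9 higher and 12 lower of 47 tested (58 listed), with a median of -0.06. Under all 3 scalings 9 were higher and 9 lower. UGT73B5 read 1526 and 1818 with DEX, against 205 and 199.9 with mock (3.04 ± 0.19), and UGT74D1, which acts on auxins, averaged 255 ± 61.5 with DEX, against 1337 ± 206 with mock (-2.405 ± 0.18). Of 26 CYP genes (240 listed) 7 were higher and 3 lower (2 lower under all 3 scalings). CYP71B22 read 8980.2 and 10461 with DEX, against 825 and 1184 with mock (3.29 ± 0.27), and CYP71B6 5566 and 7009 with DEX, against 939 and 864 with mock (2.79 ± 0.13). CYP71B29, of the same subfamily, was among the largest falls. Of 11 GSTU genes, detoxifying glutathione transferases (27 listed), GSTU25 was higher (2.37 ± 0.32) and 3 were lower, GSTU27 at 138 and 147 with DEX, against 1937 and 1948 with mock (-3.77 ± 0.13). The brightest member, GSTU20, was not called (-0.21 ± 0.11). Of 5 phenylpropanoid genes (35 listed) 3 were lower, 2 of them under all 3 scalings, and 0 higher. HCT, of lignin precursor synthesis, changed by -1.06 ± 0.14. The rise of CCR2 given above is not part of this count, although the list names that symbol. BGLU genes, glycoside hydrolases, gave 5 higher and 6 lower of 20 (5 lower under all 3 scalings). Beside BGLU45, BGLU27 read 656 and 833 with DEX, against 23.2 and 48.98 with mock (4.45 ± 0.86).

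Among further groups by symbol, also added after the data had been seen, SCPL, IQD and TET genes held more calls downward than upward. All genes also held more calls lower (18.6%) than higher (12.6%). After median centring the medians of SCPL, IQD and TET genes were -0.10, -0.14 and -0.06, against 0.20 over all genes. GH genes, grouped in the same way, gave 5 higher and 5 lower of 19 (3 lower under all 3 scalings). That symbol joins the auxin-conjugating GH3 genes, some counted above with auxin genes, with endoglucanase genes such as GH9B6. SCPL genes, of serine carboxypeptidase-like enzymes, gave 2 higher and 9 lower of 29, and scpl46 read 90.5 and 32.8 with DEX, against 434 and 455 with mock (-3.03 ± 0.34). IQD genes, whose products bind calmodulin and lie along microtubules, gave 2 higher and 7 lower of 15 (6 lower under all 3 scalings). IQD22 and IQD30 were the 2 that rose (2.19 ± 0.196 and 2.18 ± 0.21). TET genes, of tetraspanin membrane proteins, gave 1 higher and 5 lower of 15 (4 lower under all 3 scalings).

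**Figure D4:**
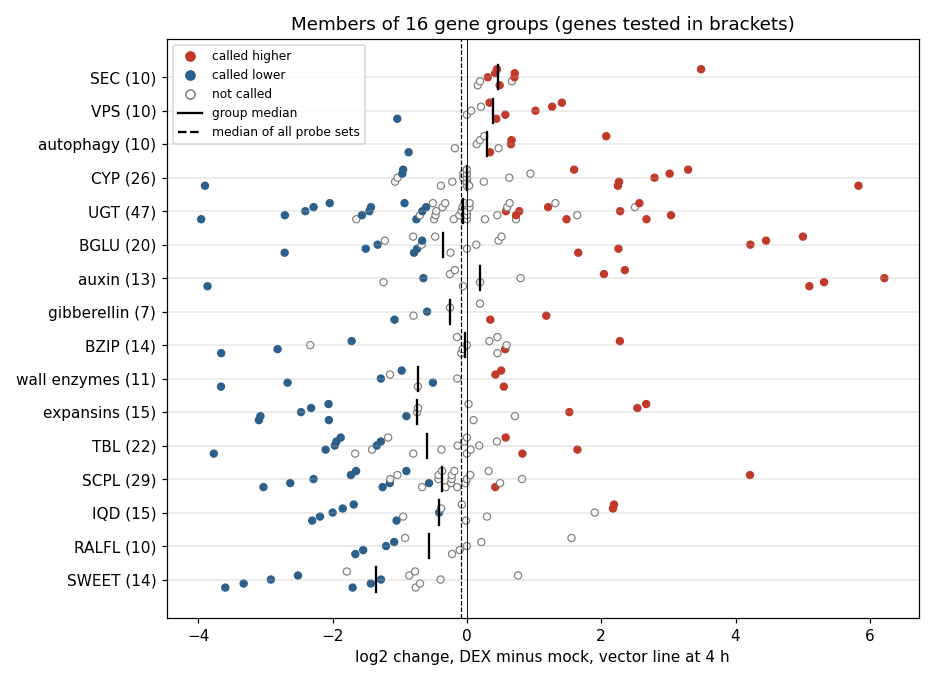
Log2 change (DEX minus mock, vector line) of every tested gene in 16 groups, with the number tested in brackets; red points were called higher, blue points lower and open points not called, short bars are group medians and the dashed line is the median of all probe sets (-0.09). SWEET, with a median of -1.35, and RALFL have no red point, and SEC, with a median of 0.47, has no blue one. Over all genes 12.6% were called higher and 18.6% lower.

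The rga line at 4 h, with 3 arrays a side, gave far fewer calls for the same treatment. DEX against mock called 688 probe sets there (3.02%), 515 higher (2.26%) and 173 lower (0.761%); leaving out rga DEX replicate 1 gave 395 calls and leaving out rga DEX replicate 3 gave 444. Of the 3085 probe sets higher in the vector line, 432 were also called higher in the rga line, or 14.003% of the vector calls and 83.9% of the rga calls. Of the 4944 that were lower, 150 were also lower in the rga line, or 3.03% of the vector calls and 86.7% of the rga calls. Opposite calls were few: 25 probe sets were lower in the vector line and higher in the rga line, and 2 were the reverse. Over genes by their brightest probe set, 1.85% were called higher and 0.549% lower in the rga line. The 2 comparisons use different arrays and share the spread estimate of 1 fit. The probe sets higher in the vector line had median changes of 1.05 in the vector line and 0.19 in the rga line, and those lower had -1.08 in the vector line and -0.15 in the rga line; they were chosen in the vector line, so its medians are a description.

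The difference of the DEX effects was tested directly. It was called for 5019 probe sets (22.1%), 1808 above 0 (7.95%) and 3211 below 0 (14.1%), vector minus rga. After centring on array medians the balance turned, with 2908 above 0 and 2043 below 0. The high 25S ribosomal RNA signals (12528 and 13088) and low medians (139.9 and 137.0) were found on the vector DEX arrays alone, so they enter this difference too. The actin ratios and shares of dim probe sets given above also separate the lines. The part of these values in the difference was not tested. Of 515 probe sets called higher in the rga line, 286 had a difference above 0, 66 below 0 and 163 no call. Over genes by their brightest probe set, the difference was called for 19.3%, 7.41% above 0 and 11.9% below 0.

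The genes with the largest differences are given with their values in the rga line. CML37 was not called in the rga line (-0.32 ± 0.79), with 54.2, 23.2 and 13.3 on the DEX arrays and 23.63, 61.7 and 22.2 on the mock arrays, and differed by 4.93 ± 1.24 (vector minus rga; limma adjusted p = 0.0129). LBD16 read 251, 208 and 229.9 with DEX in the rga line, against 128, 90.8 and 63.4 with mock, a rise of 1.34 ± 0.28 where the vector line rose by 6.22; the difference was 4.87 ± 0.44. AT2G23270 showed the largest difference of this kind, 6.25 ± 0.82, with 1299 and 1159 on the vector DEX arrays, against 34.3 and 52.95 on the vector mock arrays, and a change of -1.401 ± 0.52 in the rga line. AT3G62280 and AT1G43000 differed by 5.29 ± 0.42 and 4.78 ± 0.74. Downward, AT1G70820 differed by -4.38 ± 0.41 and AT4G09890 by -4.33 ± 0.36, with changes of 0.06 ± 0.26 and -0.23 ± 0.23 in the rga line. AT5G48490 and AT5G62360 differed by -3.96 ± 0.32 and -3.85 ± 0.35. AT3G56270 differed by -4.26 ± 1.303, called in neither line (-2.16 ± 1.01 in the vector line and 2.097 ± 0.82 in the rga line).

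Other genes were called in both lines. BGLU45 rose by 3.33 ± 0.25 in the rga line, and the lines differed by 1.68 ± 0.403 (limma adjusted p = 0.00983). M10 read 25.97, 52.5 and 94.7 on the rga DEX arrays, against 3.795, 6.39 and 8.73 on the rga mock arrays; 2 of those 3 mock arrays lie under the floor of 8, so its rise of 2.62 ± 0.36 there is a lower bound. GH3.3 fell by 3.86 on the log2 scale in the vector line and by 1.13 in the rga line. The gene MYBC1, of the MYB transcription factors, read 1187 and 1102 on the vector DEX arrays, against 94.03 and 105 on the vector mock arrays (3.53 ± 0.79). In the rga line it read 1510.2, 1275 and 1636 with DEX, against 4.77, 12.7 and 5.51 with mock (7.296 ± 0.64), and the difference was -3.77 ± 1.01 (limma adjusted p = 0.0184). As 2 of the 3 rga mock arrays were raised to 8, the sizes of that rise and of that difference are lower bounds. For WRKY6 the rga line rose by 1.65 ± 0.24 and the difference, 0.98 ± 0.39, was not called.

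Some of the gene groups were also set against the rga line, gene by gene. Among SWEET genes the rga line had 0 calls by limma in either direction (at an unadjusted p under 0.05, 0 higher and 1 lower) and a median of -0.18, and the difference was called below 0 for 5 of the 14. SWEET11 read 2281, 2913 and 1995 with DEX in the rga line, against 3353, 2765 and 2654 with mock, and differed by -3.299 ± 0.41. For expansins the rga line had 1 call, and the difference was above 0 for 3 and below 0 for 4 of 15. Of 10 SEC genes 2 had a difference above 0, and of 10 VPS genes 4 had one above 0 and 1, VPS9B, below 0. The rga medians of those groups were 0.16 and 0.06.

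**Figure D5:**
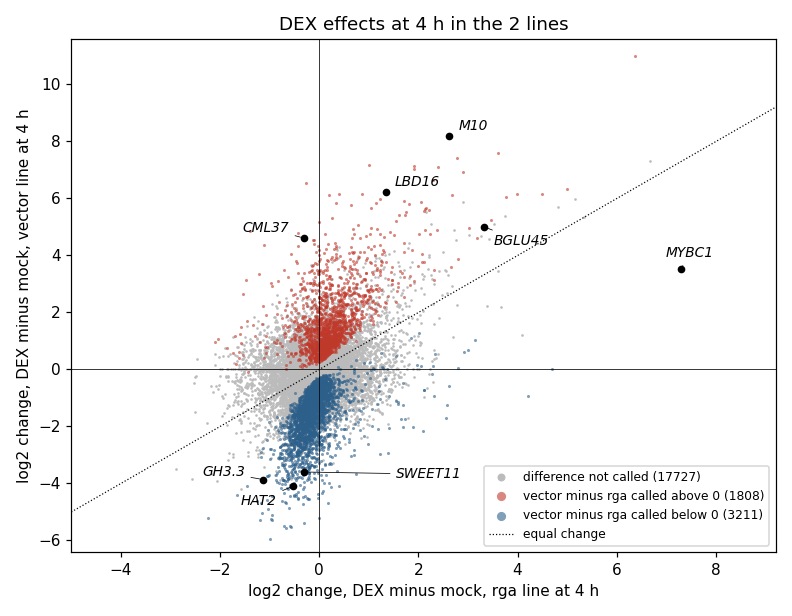
Log2 change (DEX minus mock) at 4 h of each probe set in the vector line (vertical axis) against that in the rga line (horizontal axis); red and blue points have a difference called above 0 (1808) and below 0 (3211; 2908 and 2043 after median centring), vector minus rga, and the dotted line marks equal change. Labelled genes are given with their values in the text; MYBC1 lies right of the line of equal change.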

How the data were processed

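Shoot RNA was hybridised to 16 single-colour Affymetrix arrays, of which the 4 of the vector line are described. The authors deposited linear signal intensities. MAS5 is named in the submitters' processing notes as their tool, with no version; the authors' scaling was kept. Of 22810 probe sets 64 AFFX controls were left out; signals under 8 were raised to 8 and log2 was taken. A single limma model (limma 3.58.1 in R 4.3.3) was fitted to the 16 arrays, with a mean for each of 6 groups (residual degrees of freedom, 10), eBayes with trend and Benjamini-Hochberg adjustment over 22746 probe sets and calls at an adjusted p below 0.05. The samples are called biological replicates; where separate growth is not stated, p-values measure only the spread between them. The fit was tested on simulated data. For grouping by gene, the brightest probe set was used; a single gene was annotated for 13513 of the probe sets tested, 503 had several and 8730 had no gene listed; 13436 matched RefSeq (TAIR10.1). The build of the files is not stated, so no coordinates are given.

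The comparison, its members and the gene lists were chosen with earlier results of these data known. Genes were named by rule: the 15 largest rises and falls with all 4 arrays above 8 among called probe sets with 1 gene and non-overlapping groups, 5 each way at the floor, up to 4 called and 2 uncalled members of each list, and 5 each way in the difference between lines. Further list members, symbol ranks and symbol families were chosen after values were seen. Some genes are not reported here, and promoter motifs were not analysed. Alternatives were 2 other scalings, 3 floors, 2 filters on dim probe sets, no trend, array weights, fewer arrays, a replicate block, an added 2-fold minimum, each array left out and, for lists, the mean of probe sets.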

Additional observations from a re-analysis of the deposited data

Results flagged for a closer look

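A control probe set outside the tests stood out: the 25S ribosomal RNA signal averaged 12808.2 ± 396 on the 2 vector DEX arrays and 474 ± 73.5 on the 2 vector mock arrays (SD, n = 2 each), and both DEX arrays lay above all 14 other arrays. It was the only one of the 64 AFFX control probe sets that lay above all other arrays with at least 2-fold over mock. Its part in the other results was not tested.

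The effect of DEX differed between the vector line and the rga line at 4 h for 5019 probe sets by the test of the difference itself (limma). The genes with the largest differences (vector minus rga, log2) among those above 8 on all 10 arrays of 4 h were AT2G23270 (6.25), AT3G62280 (5.29), CML37 (4.93), LBD16 (4.87) and AT1G43000 (4.78) upward, and AT1G70820 (-4.38), AT4G09890 (-4.33), AT3G56270 (-4.26), AT5G48490 (-3.96) and AT5G62360 (-3.85) downward. No group was tested for a single far array, as groups hold 2 or 3.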

How the results depend on the processing

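The count of probe sets called in the vector line stayed within 1.5 times of 8029 under other scalings, floors, filters, no trend, array weights, fewer arrays and the replicate block over all 16 arrays (7696). With an added 2-fold minimum it was 4287, with 249 for the rga line and 3023 for the difference between the lines. A replicate block in the 4 vector arrays alone leaves 1 residual degree of freedom and gave 0 calls (8234 at an unadjusted p under 0.05). Deviations of same-numbered vector arrays from their group means did not correlate over probe sets (-0.011). With 2 arrays a side, this cannot show whether the numbers pair the samples. Leaving out 1 array gave 6171 to 6962 calls in the vector line, 395 to 697 in the rga line (395 without DEX replicate 1 and 444 without DEX replicate 3) and 3664 to 4921 for the difference. Median centring turned the share of calls above 0 in the difference to 58.7%, against 36.02%. Of 302 called genes among those ranked or listed, 224 lost their call under none of the alternatives that tested them, leaving aside the 2-fold minimum and the fits of the 4 vector arrays alone; 78 lost it under at least 1, and 0 changed sign. The 50% filter on dim probe sets left out 70 of the 224. In the fit of only the 4 vector line arrays, 6319 probe sets were called, and 68 of the 302 genes lost their call. That fit leaves 2 residual degrees of freedom. With the mean of a gene's probe sets, 0 of 3 tested normalisation genes were called, against 1; other lists stayed within 1.5 times. Where a call was lost, the cause was not tested. Both arrays of the DEX group share the high ribosomal RNA signal, so no fit without it exists. Signals near 8 limit what can be said of dim genes, and 2 arrays a side limit all values.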
